A study of Mus musculus with 24 samples.

Results

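The mouse gene mt-Rnr1 encodes the 12S rRNA of mitochondria. In the mm10 build it lies at chrM:70-1024 (955 bp, ENSMUSG00000064337.1), between the tRNA genes mt-Tf and mt-Tv, and the annotation gives it as a single mitochondrial rRNA exon without introns or UTRs. Its members here are all listed cytosines of both mtDNA strands at nt 70 to 1024, chosen by position, which makes 342 of 5829 listed cytosines, 188 of the L strand plus 154 of the H strand. The 500 bp of H strand that end at nt 1000 were already known to hold raised values when the gene was picked, so values there are given as a description. Tests below that use the gene's H-strand means include these sites and are not independent of that choice.

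The 12S rRNA is the RNA core of the small subunit of the mitochondrial ribosome, where codons of the mitochondrial mRNAs are read. It is transcribed from the H strand as template, so its sequence is that of the L strand, and together with the 16S rRNA it is cut out of a long precursor at the flanking tRNAs. The rRNA itself carries methylated cytosines in its decoding region, put there by RNA methyltransferases including NSUN4. In bisulfite sequencing an unmodified cytosine that is single-stranded is converted to uracil and read as thymine, whereas 5-methylcytosine, or a cytosine that the reagent did not reach, is still read as cytosine. The study names a further possible source, in which copies of H-strand fragments without cytosine are copied again during library making. Such reads would align to the L strand and count as unconverted there, which was not tested here. The percent of reads that keep the cytosine is the unconversion rate.

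Native mtDNA came from purified, nuclease-treated mitochondria of the mouse embryonic stem cell (ESC) line E14, and of brain and liver of C57BL/6J mice. ESCs were grown on feeder cells in 2i-LIF medium, all of them are 1 cell line, and the age and sex of the mice were not given in the sources used here. Synthetic mtDNA, labelled C57BL/6J, is a PCR product with no 5-methylcytosine. All 24 libraries were linear mtDNA with λDNA added, treated with 9.2 M bisulfite and made into libraries by post-bisulfite adaptor tagging. ESC preparations 1 and 2, brain 1, liver 1 and synthetic mtDNA were treated for 5, 15, 40 and 60 min, ESC 3 for 60 and 90 min, and brain 2 and liver 2 for 60 min. There is 1 library per preparation and duration, so the preparation is the replicate, with 3 ESC, 2 brain, 2 liver and 1 synthetic preparations at 60 min.

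The libraries held 257028 to 2260572 cytosine calls over all mtDNA. Cytosines with coverage of 10 or more were used. At 60 min mt-Rnr1 was left with 40 to 164 of its 188 L-strand cytosines and 116 to 150 of its 154 H-strand cytosines. Brain 2, with 302234 calls, had the fewest on both strands, and all its sites were covered in the other 7 libraries too, so its means rest on a subset of their sites. Only 40 L-strand and 116 H-strand sites were covered in all 8 libraries. The median coverage of the used sites at 60 min was 30 to 61 L-strand reads and 39 to 291.5 H-strand reads. A floor of 3 unconverted reads at these coverages came to 4.92 to 10% (L strand) or 1.03 to 7.69% (H strand), so rates of a few percent at single L-strand sites were not detectable in single libraries. These floors and the intervals below cover counting error only.

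Raised rates at 60 min lay in a few short tracts of the gene. The sequences below (mm10, 5′ to 3′ on the strand named) are the 4 stretches of mt-Rnr1 with no guanine on that strand for 30 or more bases, shown with the guanines that bound them and with their cytosines in capitals. The first 3 had raised rates, and the fourth lacks guanine over a longer stretch but was converted. The stretches and the length of 30 were picked after the rates were seen, so each stretch is described without a test of its own. Later comparisons that leave the long runs out use this same cut, so their p-values are not independent of it.
L strand, chrM:138-171: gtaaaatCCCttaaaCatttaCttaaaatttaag
L strand, chrM:515-553: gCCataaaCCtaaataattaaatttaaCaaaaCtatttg
H strand, chrM:837-873: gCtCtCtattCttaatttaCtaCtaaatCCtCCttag
L strand, chrM:912-957: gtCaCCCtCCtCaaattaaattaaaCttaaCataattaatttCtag

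In the deposited values at 60 min, the L strand of mt-Rnr1 had far lower unconversion rates than the rest of the mtDNA L strand. Its mean unconversion rate was 4.49% in ESC 1, 4.07% in ESC 2, 4.91% in ESC 3, 5.27% in brain 1, 3.19% in brain 2, 5.77% in liver 1, 7.73% in liver 2 and 5.66% in synthetic mtDNA. Elsewhere in mtDNA the L-strand means of these libraries were 30.4% in synthetic mtDNA to 42.6% in brain 2. The gene was thus the lower in 8 of 8 preparations, with no overlap, and the mean difference was -28.4 percentage points ± 4.65 (SD, n = 8, exact sign-flip permutation test over preparations, two-sided p = 0.0078, the smallest it can give). In the gene, 1 site of liver 1 and no site of the other 7 libraries had a rate of 90% or more at 60 min, against 20.1 to 37.6% of the covered L-strand sites elsewhere. With sites of 50% or more left out on both sides, the difference was -2.25 points at the same p. The study removed reads that were almost wholly unconverted before computing its rates. The deposited percents appear to include such reads, so the difference is that of the values as deposited and could not be recomputed without them.

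**Figure D1:**
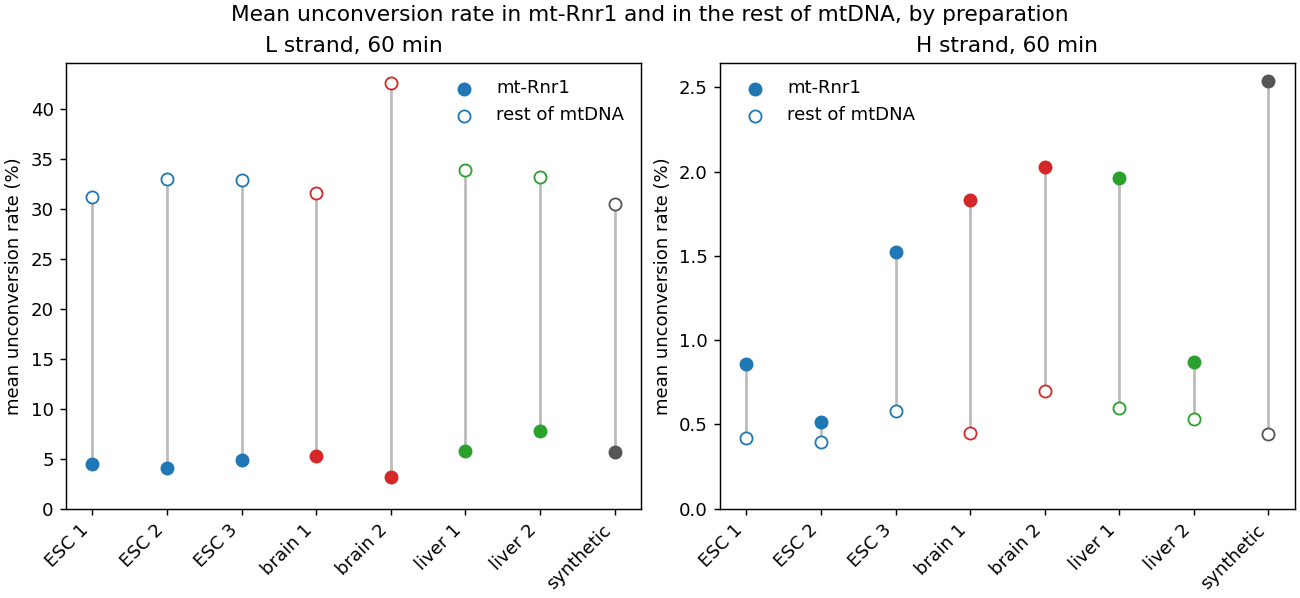
Mean unconversion rate (%) of mt-Rnr1 (filled points) and of the rest of mtDNA (open points) in each preparation at 60 min, L strand left and H strand right, each joined by a line. On the L strand the gene lies at 3.19 to 7.73% below 30.4 to 42.6% elsewhere, and on the H strand it lies at 0.514 to 2.54% above 0.395 to 0.699%.

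The H strand showed the opposite order, at a much lower level. The mean of the gene was 0.859% in ESC 1, 0.514% in ESC 2, 1.52% in ESC 3, 1.83% in brain 1, 2.03% in brain 2, 1.96% in liver 1, 0.869% in liver 2 and 2.54% in synthetic mtDNA. The other H-strand cytosines had means of 0.395 to 0.699%, and the gene was above them in 8 of 8 preparations, by 0.119 points in ESC 2 to 2.09 points in synthetic mtDNA. This is a description, since the gene was picked with its H-strand values known.

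Within the gene the L strand had the higher mean. Over all covered sites it exceeded the H strand in 8 of 8 preparations, by 1.16 to 6.86 points (mean 3.62 ± 1.55, SD, n = 8, exact sign-flip permutation test, two-sided p = 0.0078). This call was lost at the 40 L-strand and 116 H-strand sites covered in every library, where the difference was 0.17 points (p = 0.46 in the same exact permutation test). It was also lost with the long guanine-free stretches left out, a cut chosen after the rates were seen. The difference was then 0.64 points (p = 0.078 in the same exact permutation test). The gene was picked with its H-strand values known, so none of these p-values is independent of that choice.

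Along the gene, the L-strand rates were near 0 apart from 2 places. Counted in 100 bp windows from nt 70, the native preparations had means of 9.14% ± 6.39 (SD, n = 7) in nt 70 to 169 and 45.6% ± 11.9 (SD, n = 6) in nt 470 to 569. Synthetic mtDNA had 20.3% and 33.2% in these windows. In the other 8 windows the native means were 0.31 to 3.76%, and the synthetic values 0 to 1.08%. Among these, nt 670 to 769 had all 7 native preparations above synthetic mtDNA, with 1.41, 3.63 and 0.645% in ESC 1 to 3, 2.24 and 11.6% in the brain preparations, 1.82 and 4.96% in those of liver, and 0.405% in synthetic mtDNA. The value of brain 2 there rests on 4 sites.

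The first place is the tract of 5 cytosines at nt 145 to 159. Its mean rate was 24.9% in ESC 1, 20% in ESC 2, 18.2% in ESC 3, 25.6% in brain 1, 57.0% in liver 1, 53.1% in liver 2 and 65.8% in synthetic mtDNA. ESC and brain preparations were low, and both liver preparations and synthetic mtDNA high, without overlap. Brain 2 had fewer than 10 reads at each of the 5. Coverage was thin, with medians of 10 reads in ESC 2 to 54 in synthetic mtDNA, and the pooled rates had 95% Wilson intervals of 9.51 to 37.3% in ESC 2 and 60.1 to 71.2% in synthetic mtDNA.

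In ESC 1, the 5 rates of this tract lay between 21.1 and 29.4%, and in synthetic mtDNA between 62.3 and 72.2%. They are read largely by the same reads, so they are not 5 independent values. The order of the libraries also moved with the treatment time. At 40 min the tract had 83.6% in ESC 1, 41.7% in ESC 2, 44.3% in brain 1, 74.2% in liver 1, with 68.1% for synthetic mtDNA. ESC 1 was therefore above synthetic mtDNA at 40 min and below it at 60 min. At 15 min the values were 44.9, 30.8, 15.6, 27.5 and 70.9% in the same order, so the 4 native preparations were higher at 40 than at 15 min and synthetic mtDNA was not.

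The second place is the tract of 6 cytosines at nt 516 to 547. It had 67.4% in ESC 1, 74.8% in ESC 2, 67.2% in ESC 3, 60.8% in brain 1, 59.8% in liver 1, 66.9% in liver 2 and 51.1% in synthetic mtDNA at 60 min. Here the 6 covered native preparations lay above synthetic mtDNA at 60 min, the reverse of the first tract. The value of ESC 2 rests on 3 of the 6 cytosines. At 40 min the order was mixed. ESC 1 had 92.6% and liver 1 79.5%, above the 67.6% of synthetic mtDNA, and ESC 2 had 53.7% and brain 1 54.05%, below it. The medians of coverage at 60 min were 12 reads in ESC 2 to 70 in synthetic mtDNA. The pooled rate of synthetic mtDNA had a 95% Wilson interval of 44.7 to 54.3%, and that of brain 1, 61.1%, an interval of 54.1 to 67.7%. The neighbours at nt 511, 554 and 555, outside the guanine-free stretch, had means of 39.0, 53.9 and 54.9% in the 2 or 3 libraries that covered them.

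**Figure D2:**
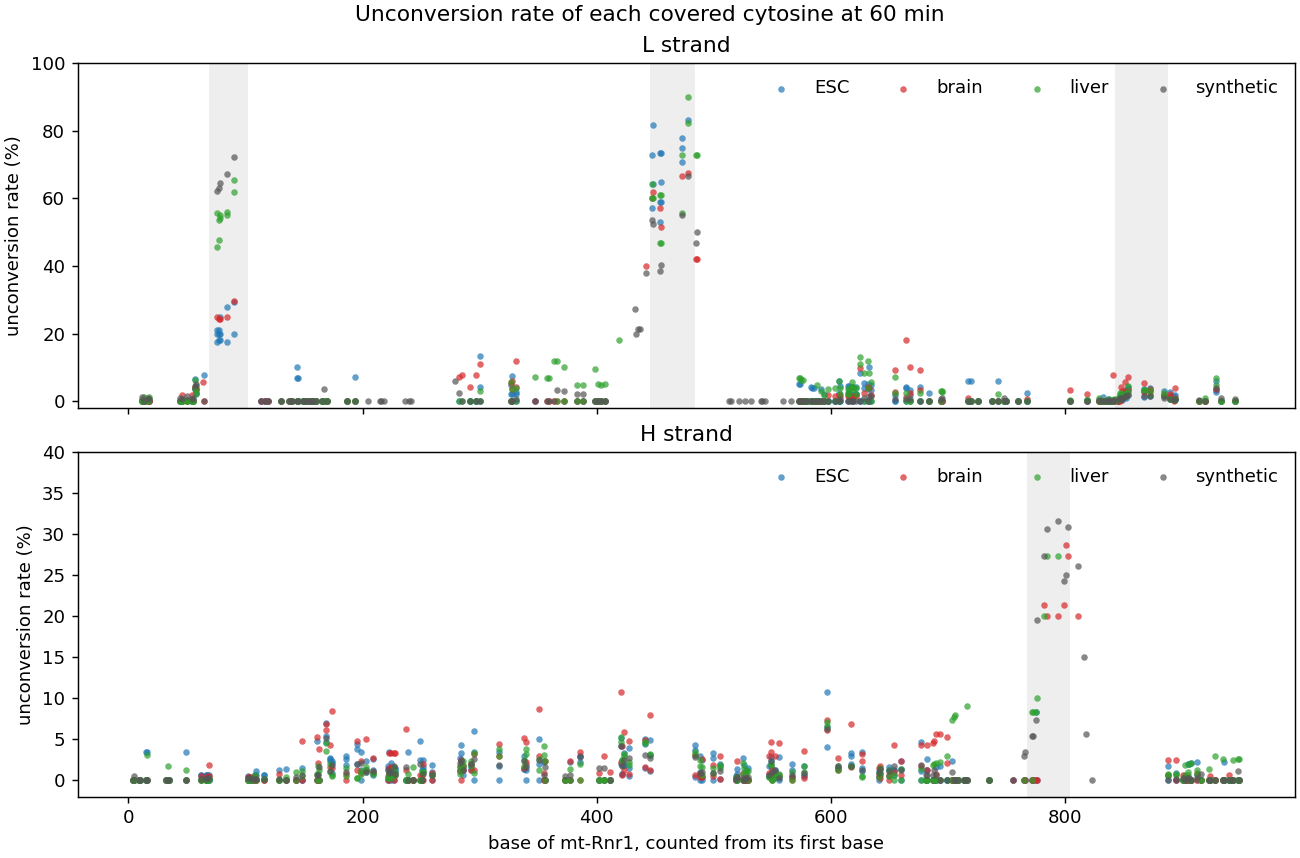
Unconversion rate (%) of each covered cytosine at 60 min against its base in mt-Rnr1 counted from the first base of the gene, L strand above and H strand below on its own scale, coloured by source, with the guanine-free stretches of 30 or more bases shaded. Raised rates gather in the first and second shaded stretch of the L strand and in the one of the H strand, and the third L-strand stretch stays under 10%.

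The fourth sequence, with 10 cytosines at nt 914 to 954, differed from these tracts. It had a mean of 1.97% ± 0.77 (SD, n = 8) and stayed between 0.95% in ESC 3 and 3.33% in brain 2. It was also the most deeply read, with a median coverage of 37.0 reads in brain 2 and 371.5 to 1705.5 in the other libraries. Among the 3 L-strand tracts the rate was thus lowest in the most deeply read one. The H-strand run below was the most thinly read of the 4, with a median of 8 reads, and had lower rates than the first and second L-strand tracts. The part of coverage in the rates was not tested.

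**Figure D3:**
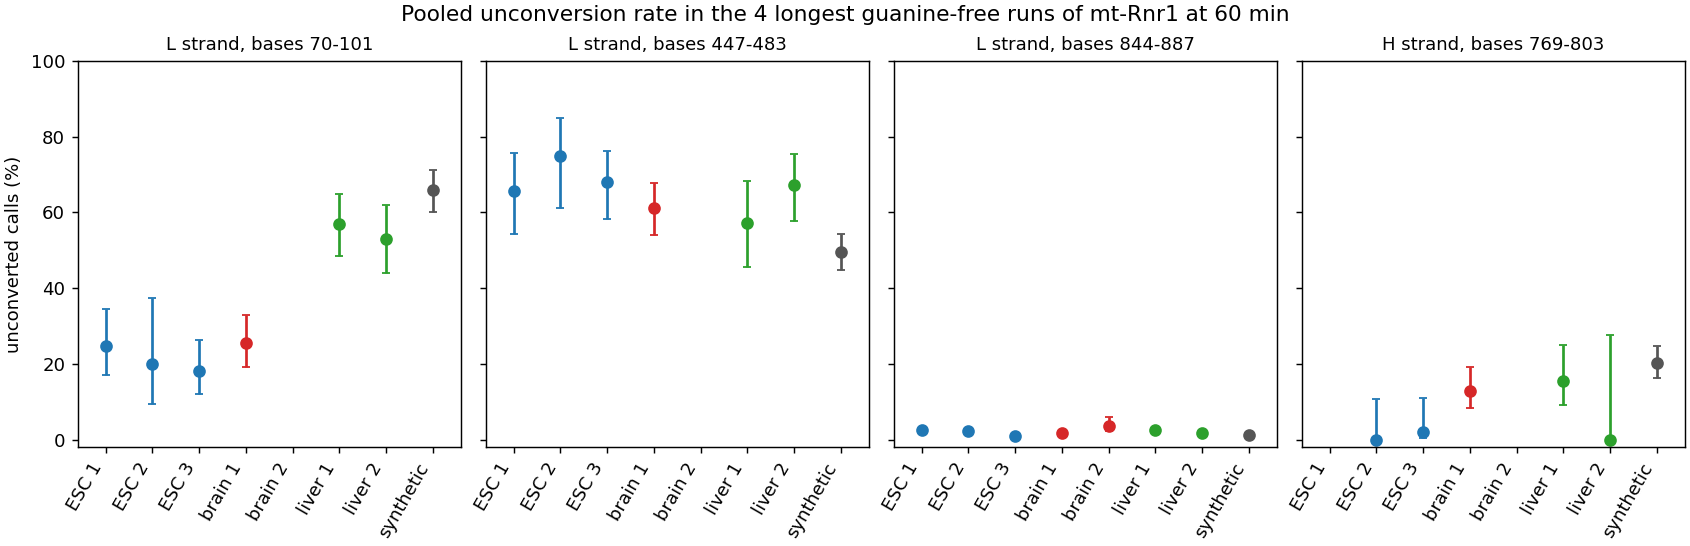
Unconverted calls (%) pooled over the covered cytosines of each of the 4 longest guanine-free stretches of mt-Rnr1 at 60 min, by preparation, with 95% Wilson intervals, titled by their bases in the gene. ESC and brain lie at 18.2 to 25.5% and liver and synthetic mtDNA at 53.0 to 65.8% in the first, whereas the third stays at 1.03 to 3.63%, and stretches with no covered cytosine have no point.

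Outside the gene the L-strand rate went with the length of the guanine-free run in which a cytosine lies, and the mean of mt-Rnr1 was below that of the rest in each class of length. There the mean over 8 preparations was 3.52% for runs of 1 to 10 bases, 12.4% for 11 to 20, 47.5% for 21 to 29 and 74.7% for 30 or more. In mt-Rnr1 the means were 1.89%, 1.61%, 2.83% (n = 7) and 23.6%, so no such gradient was seen up to 20 bases. The class of 21 to 29 bases holds 8 cytosines of the gene. Only 2 to 4 of them were covered in each of the 7 preparations, whose means were 0 to 8.63%, so this class cannot show a gradient or the lack of one. Of the gene's 21 cytosines in the longest class, 10 are those of the converted stretch at nt 914 to 954. Liver 2 was an exception in the shortest class, with 4.06% in the gene and 3.15% in the rest. The gene also has fewer cytosines in long runs, 21 of 188 (11.2%) against 20.1% of the other L-strand cytosines. With runs of 30 or more bases left out, the gene had 0.577 to 3.24% and the rest 13.97 to 18.4%, a difference of -14.3 points (exact sign-flip permutation test, p = 0.0078). This alternative and the length classes were chosen after the data were seen.

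**Figure D4:**
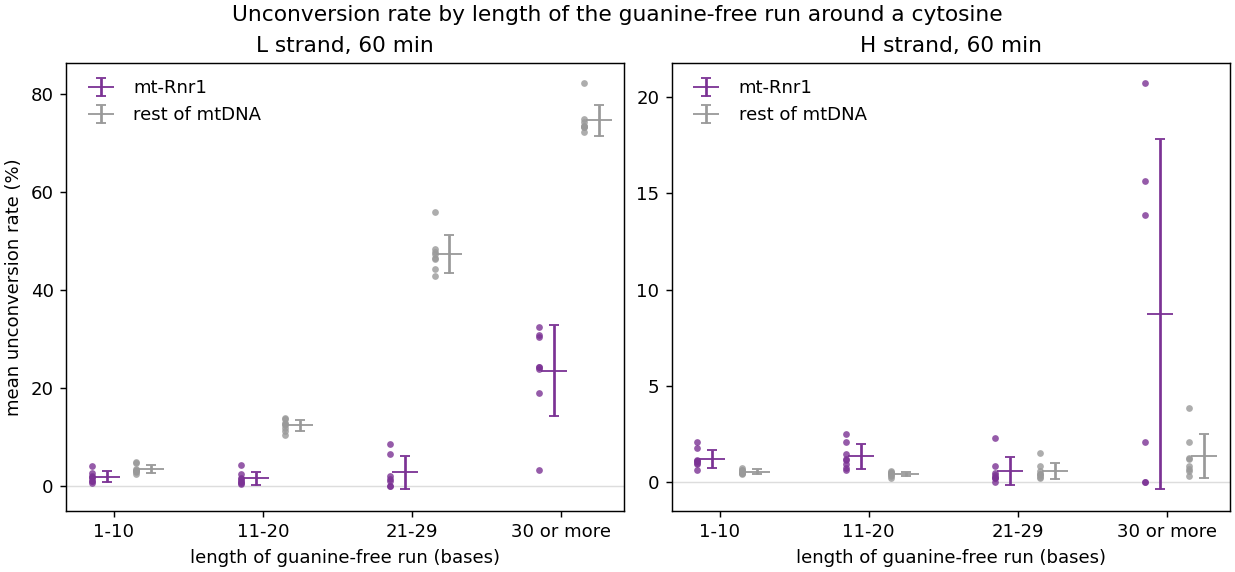
Mean unconversion rate (%) at 60 min by length of the guanine-free run around the cytosine, in mt-Rnr1 (purple) and in the rest of mtDNA (grey), L strand left and H strand right; points are preparations and bars are mean ± SD. On the L strand the rest climbs from 3.52 to 74.7%. The gene has means of 1.61 to 2.83% up to 29 bases and 23.6% in the longest class. Its points at 21 to 29 bases rest on 2 to 4 covered sites each. On the H strand only the long runs of mt-Rnr1 reach over 5%.

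The H-strand windows of nt 70 to 769 had native means of 0.27 to 2.05% and synthetic values of 0.09 to 1.96%. In nt 770 to 869 synthetic mtDNA had 8.35%, brain 1 4.36% and liver 1 8.86%, over 16 to 19 of 19 sites. The other 5 preparations had 0 to 0.76% there, over 4 to 14 sites. In nt 870 to 969 synthetic mtDNA had 12.8% over 8 covered sites and brain 1 15.3% over 5. The other 6 preparations had 0.25 to 2.50%, each over 2 of the 12 sites. The means of both windows thus rest on different sites and are not like for like between preparations. The last window, nt 970 to 1024, was back at 0.33% ± 0.37 (SD, n = 7) with 0.18% in synthetic mtDNA.

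Over the H-strand sites of the 500 bp that end at nt 1000 the mean was 0.749% in ESC 1, 0.487% in ESC 2, 1.55% in ESC 3, 2.75% in brain 1, 2.18% in brain 2, 3.10% in liver 1, 0.900% in liver 2 and 4.15% in synthetic mtDNA. The rest of the gene's H strand had 0.536 to 1.89% in these libraries, so the 500 bp were not raised against it in every library. The rest had 0.942% in ESC 1 and 0.536% in ESC 2, above the 500 bp. It had 1.499% in ESC 3 and 0.845% in liver 2, just below the 500 bp. The 500 bp were further above it in brain 1, brain 2, liver 1 and synthetic mtDNA. Without the tract at nt 838 to 887, picked after the rates were seen, these 500 bp had 0.615% in brain 1 and 0.877% in synthetic mtDNA, both below the rest of the gene's H strand in the same library (0.971 and 0.962%). Liver 1 then had 1.59%, still above its 0.986% elsewhere. Brain 2 covered no cytosine of the tract, and its 2.18% was above its 1.89% elsewhere.

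The run of nt 838 to 872 holds 10 cytosines. All 10 were covered in brain 1 and synthetic mtDNA, 7 in liver 1, 4 in ESC 3, 3 in ESC 2, 1 in liver 2, and none in ESC 1 and brain 2. The pooled rate was 20.2% in synthetic mtDNA (95% Wilson interval 16.4 to 24.6%), 12.9% in brain 1 (8.43 to 19.3%) and 15.4% in liver 1 (9.03 to 25.0%). It was 2.13% in ESC 3 (0.38 to 11.1%) and 0% in ESC 2 (0 to 10.7%). Single cytosines reached 31.6% at nt 863 in synthetic mtDNA, and those of nt 851, 854, 863, 868, 870, 872 and 880 had means of 22.9 to 29.1% over the 2 or 3 libraries with enough reads. At nt 845 the rates were 0% in ESC 3 and brain 1, 10% in liver 1, with 19.5% for synthetic mtDNA. The sites nt 885 and 887 were covered in synthetic mtDNA alone, at 15% and 5.6%.

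The ESC 1 library of 40 min read this run more deeply than the libraries of 60 min did, with a median of 66.5 reads, and its pooled rate was 1.12% (95% Wilson interval 0.57 to 2.19%). The other libraries of 40 min had means of 12.5% in ESC 2, 19.6% in brain 1, 5.4% in liver 1, with 28.8% for synthetic mtDNA. This ESC 1 library stood apart in the L-strand tracts too, with 92.6% at nt 516 to 547.

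The highest cytosines that all 8 libraries of 60 min covered had means of a few percent. Those of the H strand are shown with 12 bases on each side and the cytosine in capitals, because their coverage of 44 to 1449 reads sets the precision that the gene allows.
H strand, nt 666, chrM:654-678: aggctgaattagCaagagatggtga
H strand, nt 238, chrM:226-250: tatttatcactgCtgagtcccgtgg
H strand, nt 490, chrM:478-502: ggtatctaatccCagtttgggtctt
H strand, nt 510, chrM:498-522: tttatggctaagCatagtggggtat
H strand, nt 515, chrM:503-527: ttaggtttatggCtaagcatagtgg

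The cytosine at nt 666 had 4.1, 6.5 and 10.7% in ESC 1 to 3, 6.1 and 7.3% in the brain preparations, 6.6 and 7.1% in those of liver, and 6.2% in synthetic mtDNA. Synthetic mtDNA lay within the range of the native preparations, and the mean was 6.83% ± 1.84 (SD, n = 8). At nt 238 the mean was 5.40% ± 1.17, with 5.1% in synthetic mtDNA and 3.6 to 7.0% in native mtDNA. The means at nt 490, 510 and 515 were 4.81% ± 2.72, 3.71% ± 1.46 and 3.40% ± 2.18 (SD, n = 8 each), and none of these 5 sites is a CG.

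The highest L-strand sites covered in all 8 libraries were nt 126 at 4.59% ± 1.14, nt 733 at 3.81% ± 6.04, nt 923 at 3.62% ± 1.74, nt 127 at 3.36% ± 1.08 and nt 400 at 3.17% ± 3.86 (SD, n = 8 each). Those of nt 126 and 127 are adjacent, and synthetic mtDNA had 4.6 and 5.0% there. The mean at nt 733 rests on brain 2, with 18.2% on 11 reads, and without it was 1.76%. Brain 2 was also the highest at nt 400, with 11.8% on 17 reads, and without it the mean was 1.94%.

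Native and synthetic mtDNA were compared with 7 against 1 preparations, a design that cannot pass the threshold, so the test cannot show a difference or the lack of one. For the L strand the 7 native preparations had a mean of 5.06% ± 1.44 (SD), with 5 below and 2 above the 5.66% of synthetic mtDNA. The difference was -0.60 points (exact permutation test, two-sided p = 0.75, and 7 against 1 cannot go below 0.125). H-strand means of all 7 were below the 2.54% of synthetic mtDNA, with a mean of 1.37% ± 0.61 and a difference of -1.17 points (exact permutation test, two-sided p = 0.125, the smallest it can give). Both differences turned positive at the sites covered in every library, 0.62 points (L strand) and 0.18 points (H strand). Native H strands then had 1.21% ± 0.48 (SD, n = 7) and synthetic mtDNA 1.03%.

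At single sites, 5 of 130 L-strand cytosines of mt-Rnr1 and none of 138 H-strand cytosines differed between native and synthetic mtDNA in Fisher's exact test on summed reads with Benjamini-Hochberg adjustment over both strands of all mtDNA. The share called among all sites tested was 1.77% for the L strand, against 0.107% for the H strand. At an unadjusted p under 0.05 there were 27 L-strand and 3 H-strand sites of the gene. The share of all mtDNA sites at this unadjusted threshold is not given, here or for the limma counts below. Neighbouring sites also share reads, so such counts cannot be read as an excess in the gene. The 5 called are the cytosines of the first tract, nt 145, 146, 147, 153 and 159, and the native mean was lower at each by 31.0 to 32.2 points.

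The largest of these differences was at nt 146, with 21.1% in ESC 1, 20% in ESC 2, 18.2% in ESC 3, 24.2% in brain 1, 53.6% in liver 1, 47.8% in liver 2 and 63.0% in synthetic mtDNA. All 6 covered native preparations lay below synthetic mtDNA, the liver ones by the least, and the adjusted p of Fisher's exact test was 0.022. Summed reads take no account of the spread between preparations. In a limma fit to the preparations' empirical logits the adjusted p was 0.47, no site of the gene was called, and 24 L-strand and 5 H-strand sites had an unadjusted p under 0.05. Without ESC 1 or without brain 1 Fisher's exact test called none of the 5, and without ESC 3 it called 2. At 40 min, as given above, ESC 1 and liver 1 lay above synthetic mtDNA in this tract.

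ESC and tissue mtDNA overlapped in their means on both strands. In L-strand means the 3 ESC preparations had 4.07 to 4.91% and the 4 tissue preparations 3.19 to 7.73%, a difference of -0.996 points (exact permutation test, two-sided p = 0.49). In H-strand means ESCs had 0.514 to 1.52% and tissues 0.869 to 2.03%, a difference of -0.71 points (exact permutation test, two-sided p = 0.14). The L-strand mean of ESCs, 4.49%, lay between those of brain, 4.23%, and liver, 6.75%. Of 115 L-strand and 134 H-strand sites of the gene tested with limma, none passed the Benjamini-Hochberg threshold, where the share called among all sites was 0% for either strand. At an unadjusted p under 0.05 there were 2 L-strand and 4 H-strand sites, and the share of all sites at that threshold is not given. Fisher's exact test also called none.

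The gene has 22 CG dinucleotides, the sequence at which methylation of nuclear DNA is maintained, and these had low rates on both strands at 60 min. L-strand CG sites had 0.733% in ESC 1, 0.490% in ESC 2, 1.38% in ESC 3, 1.56% in brain 1, 2.18% in brain 2, 0.800% in liver 1, 1.43% in liver 2 and 0.332% in synthetic mtDNA. These means rest on 6 covered CG sites in brain 2, 10 in ESC 2 and 19 in synthetic mtDNA. The other cytosines (CH, where H is A, C or T) had 3.37 to 8.51%, and were the higher in 8 of 8 preparations, by 4.51 points ± 1.77 (SD, n = 8, exact sign-flip permutation test, two-sided p = 0.0078). With the long guanine-free runs left out, a cut chosen after the rates were seen, the difference was 0.79 points (p = 0.047 in the same exact permutation test). With a coverage minimum of 30 it was 1.59 points (p = 0.21 in the same exact permutation test).

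H-strand CG sites had 0.516 to 1.95%, with 1.10% in synthetic mtDNA, and CH sites exceeded them by 0.51 points ± 0.74 (SD, n = 8, exact sign-flip permutation test, two-sided p = 0.125), in 5 of 8 preparations. The highest mean of a single CG cytosine at 60 min was 2.58% (L strand) or 2.75% (H strand), each over the 19 of 22 cytosines that at least 1 library covered. Of these, 11 L-strand and 9 H-strand cytosines had means under 1%. Among the L-strand ones, nt 305, 596 and 635 were covered in only 1 library each. In single libraries the rate reached 10% at nt 441 (L strand) and 6.8% at nt 686 (H strand).

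In the ribosome, the decoding region of the 12S rRNA holds a N4-methylcytidine and a 5-methylcytidine, at the outer cytosines of the CCC in the sequence GCCCGTC. This sequence occurs once on the L strand of the gene, and that strand, which has the sequence of the rRNA, is shown with the 3 cytosines in capitals.
L strand, nt 909 to 911, chrM:896-926: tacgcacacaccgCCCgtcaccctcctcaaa

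In the DNA these cytosines were converted. At nt 909, 0 of 1749 native reads at 60 min were unconverted, which allows a rate of up to 0.172%, and 1 of 880 reads of synthetic mtDNA was. At nt 911, which is also a CG, 3 of 2252 native reads and 2 of 1150 synthetic reads were unconverted. At nt 910, between them, it was 2 of 1874 native and 1 of 945 synthetic reads. After 5 min the 4 native preparations still had 25.2% ± 4.97, 25.6% ± 3.36 and 27.5% ± 3.33 (SD, n = 4) at nt 909, 910 and 911, and synthetic mtDNA 20, 24.7 and 18%.

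Between the treatment times, the largest step in the gene's rates lay between 5 and 15 min. The L-strand mean at 5 min was 43.6% in ESC 1, 43.2% in ESC 2, 41.2% in brain 1, 42.0% in liver 1, with 40.1% for synthetic mtDNA. At 15 min it was 12.4, 7.14, 6.34, 5.43 and 8.24%, and at 40 min 10.97, 5.24, 6.15, 9.03 and 6.30%, in the same order. The 60 min libraries were lower than those of 5 min in 5 of 5 preparations, by 34.4 to 39.1 points (exact sign-flip permutation test over preparations, two-sided p = 0.0625, the smallest that 5 preparations allow).

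H-strand means of the 5 preparations were 33.8 to 37.5% at 5 min. At 15 min ESC 1 had 12.2%, and ESC 2, brain 1, liver 1 and synthetic mtDNA had 4.71, 5.21, 4.22 and 3.65%. At 40 min they had 0.525 to 2.69%, and the change from 5 to 60 min was -31.2 to -37.0 points (exact sign-flip permutation test, two-sided p = 0.0625, the smallest possible). Synthetic mtDNA changed the least on both strands. In ESC 3, the 67 L-strand cytosines covered at both 60 and 90 min had means of 1.02 and 3.43%, and the 120 H-strand cytosines 1.62 and 1.37%. The only library of 90 min had a median of 18 reads at these L-strand sites, where 3 reads are 16.7%, and 36 of the 67 were at 0%. The change from 60 to 90 min was not tested.

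**Figure D5:**
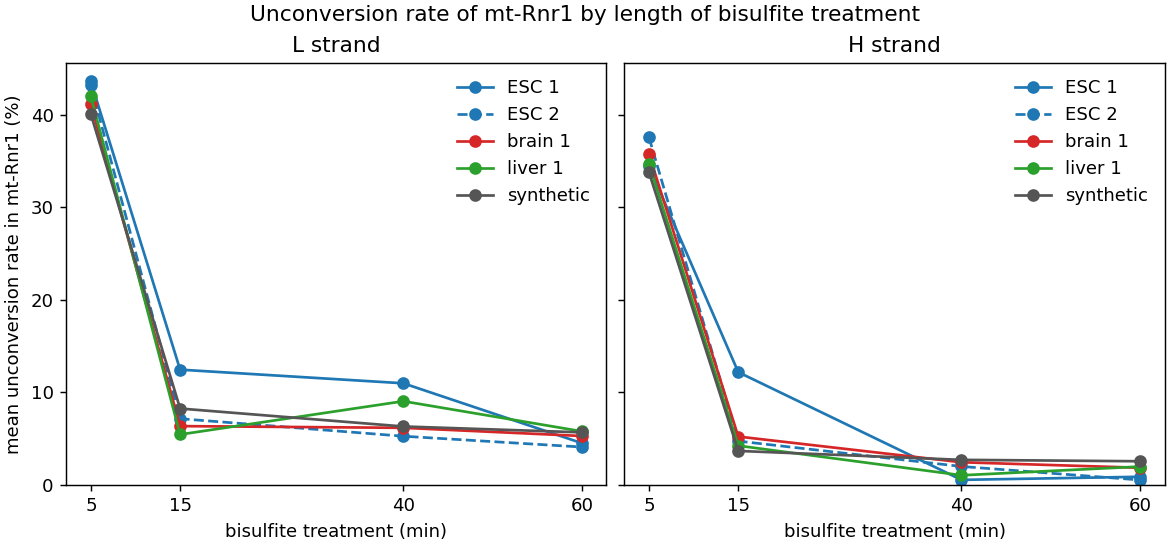
Mean unconversion rate (%) of the covered cytosines of mt-Rnr1 against bisulfite treatment in min, 1 line per preparation, L strand left and H strand right. All 5 preparations start at 33.8 to 43.6%, ESC 1 lags on both strands at 15 min with 12.4 and 12.2%, and all end at 0.514 to 5.77%.

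High rates at 5 min were not all kept at 60 min. The highest L-strand means at 5 min were 89.0% ± 4.72 at nt 555, 86.4% ± 6.13 at nt 569 and 86.2% ± 6.71 at nt 547 (SD, n = 5). Those of the H strand were 86.8% ± 2.55 at nt 887, 86.5% ± 3.28 at nt 892 and 86.4% ± 4.15 at nt 885 (SD, n = 5). These 3 H-strand sites lie in runs of 9 to 14 bases, next to the guanine-free run of 35 bases. At 60 min nt 569 had fewer than 10 reads in every library, and the H-strand sites had enough in synthetic mtDNA alone, where nt 892 was at 0%. The L-strand run of nt 329 to 351, with 6 cytosines, had 82.0 to 85.7% at 5 min in the 4 native preparations, more than the 58.5 to 72.2% of the first tract in them. At 60 min it had 0 to 7.1% in the 4 libraries with a covered cytosine, each with only 1 or 2 of the 6. All 4 covered nt 351, the CG at the end of the run, with a mean of 2.35% at 60 min and 49.8% at 5 min. The run's values at 5 and 60 min are thus mostly not of the same sites.

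Reads of the gene were unevenly shared between the strands. Set against the other cytosines of the same strand, all listed cytosines of the gene had at 60 min 0.703 (brain 2) to 2.01 times (brain 1) the mean coverage for the L strand, but 0.265 to 0.482 times for the H strand. Synthetic mtDNA had ratios of 1.79 (L strand) and 0.452 (H strand). The L-strand ratios depended on the use of means. With median coverage they were 0.844 (ESC 1) to 1.4 (liver 2), with 1 in brain 1 and synthetic mtDNA and 1.25 in brain 2. The H-strand ratios of medians were 0.29 to 0.464. The native minus synthetic difference in log2 relative coverage, from means, was -0.34 for the L strand (exact permutation test, two-sided p = 0.375), and -0.37 for the H strand (exact permutation test, two-sided p = 0.625). With 7 against 1 preparations neither test could pass the threshold.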

How the data were processed

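The authors sequenced 24 PBAT libraries on a MiSeq, trimmed first reads with Trim Galore, mapped them to mm10 mtDNA with Bismark for PBAT libraries, and derived each cytosine's state per strand with their own scripts; versions were not given in the sources used here. The authors deposited, per cytosine, the percent of covering reads that were unconverted (1 decimal) and the coverage as a count of reads, unnormalized. Before computing its own rates the study dropped reads unconverted at 90% or more of their cytosines, which needs single reads, so all L-strand rates and differences are of the values as deposited, which appear to include such reads.

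Unconverted reads were taken as percent times coverage, rounded. Sites needed a coverage of 10; rates of a gene or window are means over sites. Positions are those of the files, and sequences come from RefSeq GRCm38 chrM, in which every listed position holds a cytosine of its strand. Guanine-free runs extend from a cytosine to the next guanine of its strand on either side. Preparations were compared by exact permutation or sign-flip tests, sites by Fisher's exact test on summed reads (native against synthetic) or limma 3.58.1 in R 4.3.3 on the empirical logit with offset 0.5 (ESC against tissue), both Benjamini-Hochberg adjusted at 0.05 over all mtDNA sites. Both site tests were run on simulated reads. These had no spread between preparations and no reads shared between sites, so the simulation does not cover those features of the data. Python 3.11.15 and scipy 1.17.1 were used. No pair of libraries had identical coverage. Wilson intervals are at 95% and treat calls of 1 read as independent, so they are too narrow.

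Named sites are, per strand, the 5 highest at 60 min among those covered in all 8 libraries, up to 5 called sites that differ most from synthetic mtDNA with every native preparation on 1 side, the 3 highest at 5 min, the H-strand sites at 5% or more in the 500 bp that end at nt 1000, the CG dinucleotides and the GCCCGTC cytosines; the sites at nt 511, 554 and 555 and the guanine-free runs were added after their values were seen. The gene, lists and tests were chosen with earlier results of these data known.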

Additional observations from a re-analysis of the deposited data

Results flagged for a closer look

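In 8 of 40 groups tested, a native library lay far from the others by Dixon's test. The test's rate of about 1 of 20 by chance holds for normal values of equal precision. The values here are bounded at 0 and rest on unequal sites and depth, so the count cannot be set against that rate. The window groups join 3 sources, so they hold more than replicate error. At 15 min the H-strand mean of mt-Rnr1 in ESC 1 was 12.2%, with the nearest of the other 3 native libraries at 5.21%, and its relative coverage on that strand was 0.660 against 0.367 in the nearest. At 60 min the L-strand window of nt 670 to 769 had 11.6% in brain 2, from 4 covered sites, against 4.96% in the nearest preparation, and the window of nt 870 to 969 had 2.62% in brain 2 against 1.29%. On the H strand, nt 670 to 769 had 3.56% in brain 2 against 1.35%. ESC 3 was the highest in the L-strand window of nt 770 to 869, with 2.02% against 0.22%, and in the H-strand window of nt 70 to 169, with 0.90% against 0.36%. Brain 1 had 15.3% in the H-strand window of nt 870 to 969, from 5 covered sites. The nearest native preparation had 2.50% there, from 2 sites, so different sites are compared.

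The L-strand mean of mt-Rnr1 at 60 min lay on opposite sides of synthetic mtDNA by source. The 3 ESC preparations were below it by -1.17 points on average and both brain preparations by -1.43 points. Both liver preparations were above it, by 1.09 points on average. Liver 1, at 5.77%, was close to the 5.66% of synthetic mtDNA, and liver 2 had 7.73%. At the 40 L-strand sites covered in every library the order by source was not seen. There 6 native preparations were above the 0.82% of synthetic mtDNA and 1 was below. This difference between sources was not tested.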

How the results depend on the processing

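The L-strand difference between mt-Rnr1 and the rest of mtDNA kept its direction and its side of 0.05 in 14 of 14 alternatives, from -39.97 to -2.25 points. The native minus synthetic difference reversed on the L strand with reads pooled over sites (0.23 points), at sites covered in every library (0.62) and without the sites of 50% or more (0.23), and on the H strand with pooled reads (0.19) and at sites covered in every library (0.18). On the L strand the relative coverage reversed with medians (0.11). The L minus H difference fell short of 0.05 with a coverage minimum of 30 (1.17 points), pooled reads (0.46), sites covered in every library (0.17) and long guanine-free runs left out (0.64), an alternative chosen after seeing the data. The L-strand CH minus CG difference did so with a minimum of 30 (1.59), and the H-strand one passed with a minimum of 30 (0.34) and with pooled reads (0.37). The cause of these changes was not tested. Of the 5 L-strand sites called against synthetic mtDNA, the count was 1 with a minimum of 20, 0 with a minimum of 30, 0 with limma and 0 to 5 without single preparations. ESC minus tissue differences and the counts of 0 changed no call.

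The replicate number was not taken to pair preparations of different sources. Whether brain and liver preparations of the same number came from the same mice was not given in the sources used here. Deviations of same-numbered preparations correlated at -0.16 (ESC and brain), -0.11 (ESC and liver) and 0.19 (brain and liver) over 2902 sites. Neighbouring sites share reads, so these values cannot settle the pairing. With the replicate block the ESC minus tissue difference was -1.21 points (L strand) and -0.99 points (H strand), with 0 sites called. For the treatment times a number marks the same preparation, and with no replicate block the changes of -36.9 and -33.7 points from 5 to 60 min had p = 0.0079 in an exact permutation test. Depth limits the low rates: 22 L-strand and 4 H-strand cytosines of mt-Rnr1 had 10 reads in no library of 60 min.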
